A study of Mus musculus with 12 samples.

Results

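The effect of irradiation that wild-type and preleukemic Cbfb-MYH11 mouse progenitors have in common was measured by RNA sequencing in 12 libraries, all of those in the series. LSK cells (Lin-, Sca1+, ckit+), the bone marrow fraction that holds hematopoietic stem cells and multipotent progenitors, were sorted from mice at the preleukemic stage carrying Cbfb-MYH11 (CM) and from wild-type mice (WT, called control in the titles). Cbfb-MYH11 is the fusion that inv(16) creates in acute myeloid leukemia; the sources used here give neither the promoter or Cre behind it nor the age of the mice. The groups were CM cells irradiated ex vivo with 3.5 Gy (CM IR), WT cells irradiated in the same way (WT IR), CM cells that went through the incubation without irradiation (CM NIR) and WT cells handled likewise (WT NIR), with RNA taken at 24 h and 3 animals per genotype. In the library names, WT animals 1 and 3 carry C, WT animal 2 carries WT and the CM animals carry CHW. What C and CHW stand for is not stated in the sources used here. Each animal gave 1 IR and 1 NIR library. The irradiation effect was therefore taken within the animal, over 6 pairs, with the animal as a block and both genotypes together. Of 14599 genes tested, 209 were higher and 144 were lower in IR with the same sign in all 6 pairs and an adjusted p under 0.05.

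Ionizing radiation breaks DNA, and the kinases ATM and CHK2 then stabilize the transcription factor p53. p53 raises genes that hold the cell cycle (Cdkn1a), that start apoptosis (Bbc3, Bax), that repair DNA, and that end its own response (Mdm2, Ccng1). Genes of mitosis are known to fall when p21, the Cdkn1a product, restores the repressing DREAM complex on their promoters. Hematopoietic stem and progenitor cells are among the cells for which this response is best studied.

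Total gene counts per library were 83.0 to 110.8 M (M, mega) in IR and 68.5 to 89.5 M in NIR, and the IR library was the deeper of the pair in all 6 animals. After thinning every library to the lowest total, 195 genes were called higher and 137 lower. Transcripts of the sort antigens were present in all libraries: Kit had 170, 228 and 284 CPM (counts scaled to library size, counts-per-million; lowest, median and highest of 6) in IR and 148, 211 and 281 CPM in NIR, and Ly6a, which encodes Sca1, had 44.7, 71.8 and 323 CPM in IR and 42.0, 105 and 457 CPM in NIR. Of the lineage antigens, Cd3e reached at most 0.389 CPM and Ly6g at most 0.173 CPM, whereas Itgam, the gene of CD11b, had 161, 317 and 570 CPM in IR and 118, 237 and 588 CPM in NIR. Itgam was thus present although the labels give a Lin- sort. EdgeR called 0 of 2 sort antigens and 0 of 6 lineage antigens tested (0 and 3 at an unadjusted p under 0.05, 0 and 1 in DESeq2, 0 and 0 in limma-voom). After subtracting group means, IR and NIR of the same animal correlated at 0.79, 0.84 and 0.13 for CM animals 1, 2 and 3 and at 0.67, 0.50 and 0.41 for WT animals 1, 2 and 3. CM animal 3 stood apart: its NIR values had a correlation of 0.69 with CM animal 1 in IR. Counts are therefore also given without each of these animals. In bulk RNA, fewer cells of a type and less RNA per cell cannot be told apart.

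In edgeR's quasi-likelihood test with the animal as block, 2.46% of genes tested were called: 213 genes were higher in IR (1.46% of those tested) and 146 were lower (1.0%), at a Benjamini-Hochberg adjusted p under 0.05 over all genes. The sign was the same in all 6 pairs for 209 of the higher genes (1.43% of genes tested) and for 144 of the lower ones (0.986%). The exceptions were Aqp3, Gjb5, Tnni1 and Ttc29 among the higher genes and Acss2 and P4ha2 among the lower ones. Without regard to the test, 866 genes (5.93%) rose and 960 (6.58%) fell in all 6 pairs.

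The 209 higher genes had a median log2 fold change of 0.65 (range 0.14 to 4.03), 77 of them changed over 2-fold and 78 changed by less than 0.5 on the log2 scale. The 144 lower genes had a median of -0.22 (range -1.83 to -0.12); 5 of them changed over 2-fold and 123 changed by less than 0.5 on the log2 scale. The median of all genes tested was 0.0022. The lower genes were the more abundant, with a median of 68.5 CPM, against 12.7 CPM for the higher genes and 23.5 CPM for all genes tested. Their median standard error was 0.0369, against 0.106 for the higher genes. All 6 IR libraries lay beyond all 6 NIR libraries for 36 of the 209 higher genes and 11 of the 144 lower genes; over all genes tested this held for 65 (0.445%). Nearest to the threshold were Cd209c and Stk16 (higher) and Glcci1 and Ska1 (lower) inside it, with adjusted p values of 0.0496, 0.050, 0.0495 and 0.0495. Vmac, Gm11545, Pfkp and Tsc22d3 lay just outside, at 0.0501, 0.0501, 0.0511 and 0.0518.

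The number of called genes turned on which animals were in the fit. Without CM animal 1, 195 genes were called higher and 203 lower, and without CM animal 3, 534 and 352. Without CM animal 2 the counts were 1 and 0, without WT animal 1 30 and 3, without WT animal 2 0 and 0, and without WT animal 3 11 and 0. The adjusted p of the 209 and 144 genes had a range of 0.0583 to 0.203 without WT animal 2, where 921 higher and 1005 lower genes had an unadjusted p under 0.05. DESeq2 with the same block called 522 genes higher and 640 lower, which turned the share of higher genes among the calls to 44.9%, against 59.3% in edgeR; limma-voom called 243 and 148.

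**Figure D1:**
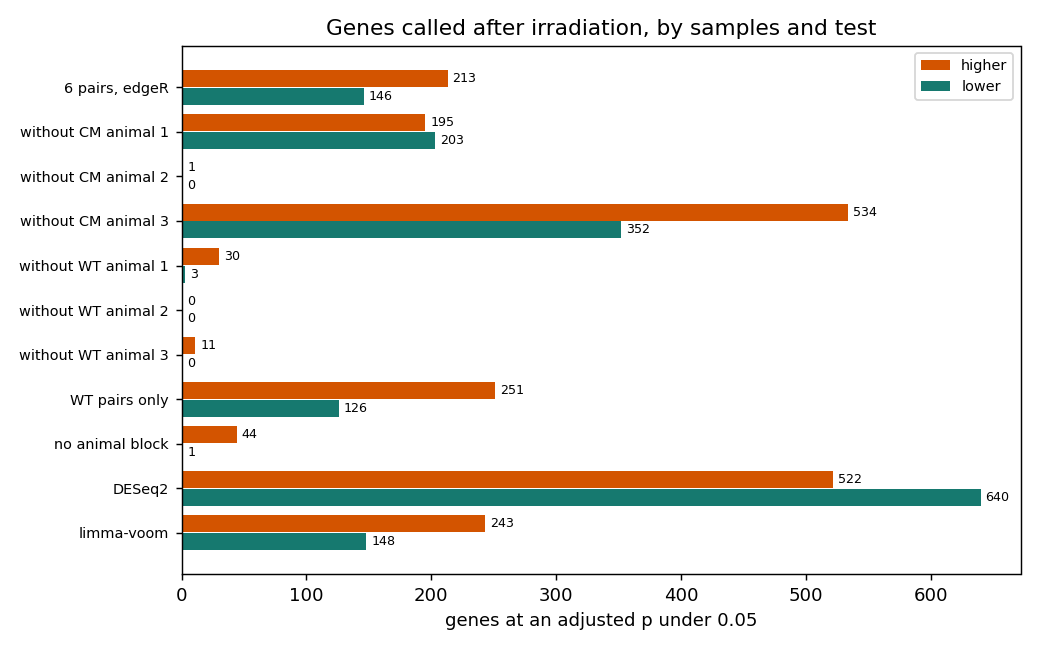
Genes at an adjusted p under 0.05 for IR over NIR (horizontal axis, number of genes), higher (orange) and lower (green), for the fit of 6 pairs, for fits without each animal, for WT pairs only and for other tests. The fit of 6 pairs gives 213 and 146 genes, and leaving out WT animal 2 leaves 0 and 0.

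Of 75 tested members of 5 lists of known p53-induced genes, 32 were called higher and 0 lower, and 17 had a log2 fold change below 0, where 1.46% of all tested genes were called higher. The count was 33 without CM animal 1, 41 without CM animal 3, 6 without WT animal 1, 3 without WT animal 3, and 0 without CM animal 2 or WT animal 2; 19 were called with no block. These lists were chosen with earlier results of these libraries known, so their direction is not independent evidence.

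Trp53 itself, which encodes p53, had 170, 200 and 257 CPM in IR and 166, 192 and 263 CPM in NIR (lowest, median and highest of 6 libraries). The libraries overlapped fully, and the log2 fold change, 0.04 (SE 0.036), had an adjusted p of 0.581. Among the 9 feedback regulators tested, 4 were called higher, where 1.46% of all genes tested were. Zmat3, an RNA-binding zinc finger protein of the p53 response, lies at chr3:32334794-32365665 (mm10, minus strand). It had 28.3, 130 and 157 CPM in IR, against 8.38, 10.8 and 13.7 CPM in NIR. Every IR library was above every NIR library; the 2 lowest IR values were those of CM animals 1 and 3, at 28.3 and 35.8 CPM. On the log2 scale it rose by 3.02 (SE 0.32, adjusted p 0.012). Trp53inp1, a stress protein that promotes p53 activity, at chr4:11156441-11174379, had 38.3, 66.3 and 87.1 CPM in IR and 15.7, 18.5 and 20.3 CPM in NIR, with no overlap, and rose by 1.74 (SE 0.156, adjusted p 0.00902). Ccng1, cyclin G1, rose by 1.45 (SE 0.19, adjusted p 0.0228), and Mdm2, the ubiquitin ligase that degrades p53, by 0.53 (SE 0.093, adjusted p 0.0381). Mdm2 had 111, 134 and 159 CPM in IR and 84.5, 91.9 and 104 CPM in NIR, again with no overlap. Mdm4 was higher in all 6 pairs and did not pass (0.29, adjusted p 0.0641), and Ppm1d, Cop1, Rchy1 and Wrap53 had log2 fold changes of -0.06 to 0.06.

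Of 15 genes of cell-cycle arrest and growth restraint, 8 were called higher and 10 rose in all 6 pairs. Over all genes tested these shares were 1.46% and 5.93%. Cdkn1a, the CDK inhibitor p21, lies at chr17:29090979-29100722. It had 428, 379 and 303 CPM in CM IR and 447, 370 and 363 CPM in WT IR (animals 1, 2 and 3), against 297, 160 and 281 CPM in CM NIR and 243, 144 and 144 CPM in WT NIR. The IR and NIR libraries did not overlap, although CM animal 3 changed by 0.11 on the log2 CPM scale. The log2 fold change over the 6 pairs was 0.91 (SE 0.17, adjusted p 0.0422). Phlda3, which restrains AKT at the membrane, had 7.49, 25.7 and 31.9 CPM in IR and 1.15, 2.39 and 2.90 CPM in NIR, and rose by 3.14 (SE 0.432, adjusted p 0.0252) with no overlap. Psrc1, a spindle protein, rose by 1.66 (adjusted p 0.0137) and Ptp4a3, a phosphatase, by 1.06 (adjusted p 0.0251). Gdf15, Tob1, Btg2 and Sesn2 rose by 0.83, 0.60, 0.54 and 0.48. Plk2 (1.24) and Gtse1 (0.76) were higher in all 6 pairs and did not pass, at adjusted p values of 0.0770 and 0.0564. Gadd45a had a log2 fold change of -0.09 and was higher in 1 of 6 pairs.

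**Figure D2:**
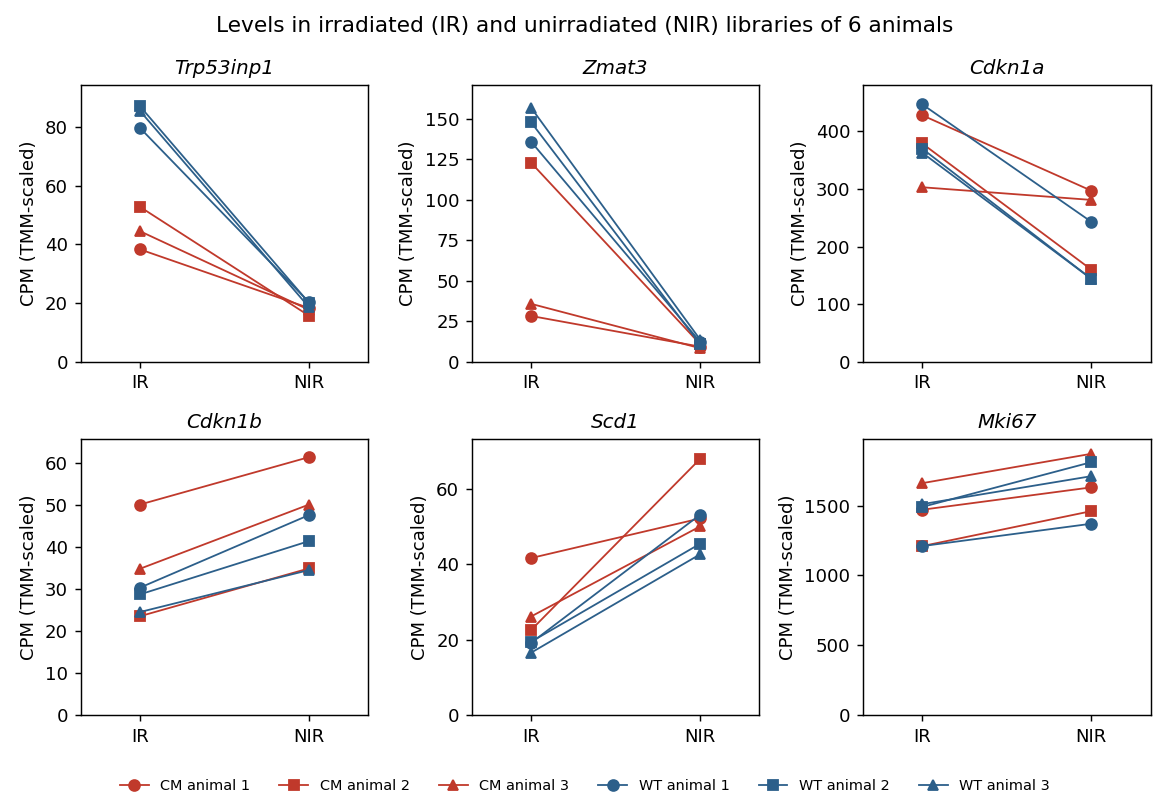
TMM-scaled CPM (vertical axes, linear, from 0) of 3 genes that rose (top) and 3 that fell (bottom) in the IR and NIR library of each animal, joined by a line; CM is red, WT is blue, and the symbol gives the animal. All 6 lines of each gene slope the same way, and Zmat3 is at 28.3 to 157 CPM in IR and at 8.38 to 13.7 CPM in NIR.

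Death genes were split. Bbc3, which encodes the BH3-only protein PUMA, had 5.77, 11.1 and 12.5 CPM in IR and 3.54, 4.38 and 5.81 CPM in NIR, with slight overlap, and rose by 1.10 (SE 0.175, adjusted p 0.0301). Tnfrsf10b, the mouse TRAIL death receptor, rose by 1.21 (SE 0.13, adjusted p 0.0120), and Pidd1, Aen and Ei24 by 0.58, 0.58 and 0.49. Bax, the pore-forming effector of mitochondrial apoptosis, was higher in 5 of 6 pairs, with CM animal 3 at 57.1 CPM in IR and 57.3 CPM in NIR. At 0.77 it missed the threshold (adjusted p 0.0626). Pmaip1, which encodes NOXA, was at 0.16 (adjusted p 0.285), and Fas at 0.48 (adjusted p 0.288) with 5 of 6 pairs up. Casp6, Bid, Bak1 and Triap1 had log2 fold changes of -0.10 to 0.04. In all, 5 of 17 death genes were called higher, where 1.46% of all genes tested were.

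Among 18 repair and metabolism genes, 5 were called higher, where 1.46% of all genes tested were. Ak1, cytosolic adenylate kinase, had 2.91, 22.4 and 27.5 CPM in IR and 1.10, 2.70 and 3.52 CPM in NIR (log2 fold change 2.59, SE 0.273, adjusted p 0.012). Ercc5, a nucleotide excision endonuclease, rose by 0.63 and Polk, a translesion polymerase, by 0.47. Rps27l, which binds MDM2, rose by 0.55 and Abhd4 by 0.47. Dglucy and Cpt1c had larger changes, 1.39 and 1.94, in all 6 pairs, yet did not pass (adjusted p 0.0521 and 0.0654). Ddb2, Rrm2b, Gls2 and Ung had log2 fold changes of -0.16 to -0.01. Outside the list, Mgmt, the enzyme that removes alkyl groups from guanine, was among the 4 genes with the smallest adjusted p (0.00836): it had 5.30, 12.9 and 16.8 CPM in IR and 2.06, 3.12 and 4.20 CPM in NIR, did not overlap, and rose by 1.82 (SE 0.146).

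Of 16 p53-induced genes of the cell surface and signalling, 10 were called higher and 11 rose in all 6 pairs. Over all genes tested these shares were 1.46% and 5.93%. Eda2r, the receptor for the A2 isoform of ectodysplasin, lies on the X chromosome at chrX:97333841-97377209. It had 2.74, 17.8 and 3.64 CPM in CM IR and 22.5, 25.4 and 26.8 CPM in WT IR, against 0.585, 1.0 and 0.337 CPM in CM NIR and 1.33, 0.782 and 1.08 CPM in WT NIR. All IR libraries were above all NIR libraries, and CM animals 1 and 3 were the lowest of the IR libraries. It rose by 4.03 (SE 0.34, adjusted p 0.00836), the largest change among the 209 higher genes. Tnfsf4, the OX40 ligand, had 4.06, 12 and 14.3 CPM in IR and 0.608, 0.883 and 1.31 CPM in NIR (3.31, SE 0.377, adjusted p 0.0137). Epha2, an ephrin receptor kinase, had 3.40, 19.0 and 27.2 CPM in IR and 0.877, 1.69 and 3.46 CPM in NIR; the IR library of CM animal 1 lay below the NIR library of WT animal 1, at 3.40 and 3.46 CPM, and the gene rose by 2.96 (SE 0.255, adjusted p 0.00836). Inka2, an inhibitor of the kinase PAK4, rose by 3.12, the cadherin Fat1 by 2.99, the sulfatase Sulf2 by 2.12 and the costimulatory ligand Cd80 by 1.73. Per length, Eda2r remained low, with a mean of 2.81 RPKM (reads per kilobase of exon, scaled to library size) in IR and 0.144 RPKM in NIR. The mean of Cdkn1a was 186 RPKM in IR and 102 RPKM in NIR. Not every gene of the list was low: Exoc4 had 114 to 238 CPM in IR and 83.9 to 103 CPM in NIR.

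Further genes with the smallest p were named by rule and belong to no list. Zfp365, a zinc finger gene known to be induced by p53, rose by 3.26 (SE 0.349, adjusted p 0.012). Trp53cor1, the long noncoding RNA lincRNA-p21, is transcribed from the minus strand at chr17:29057474-29079126, next to Cdkn1a. It had 3.63, 8.61 and 4.97 CPM in CM IR and 9.47, 9.69 and 10 CPM in WT IR, against 1.97, 2.84 and 1.21 CPM in CM NIR and 3.49, 3.88 and 2.55 CPM in WT NIR, and rose by 1.54 (SE 0.154, adjusted p 0.012). Fndc10 rose by 1.42, Gna15, a G protein alpha subunit of blood cells, by 0.54, and Il21r, the interleukin 21 receptor, by 0.84. In the plot of changes within animals, Il21r lay at 0.84, 1.15 and 1.09 log2 CPM in CM animals 1, 2 and 3 and at 0.57, 0.79 and 0.61 in WT animals 1, 2 and 3.

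**Figure D3:**
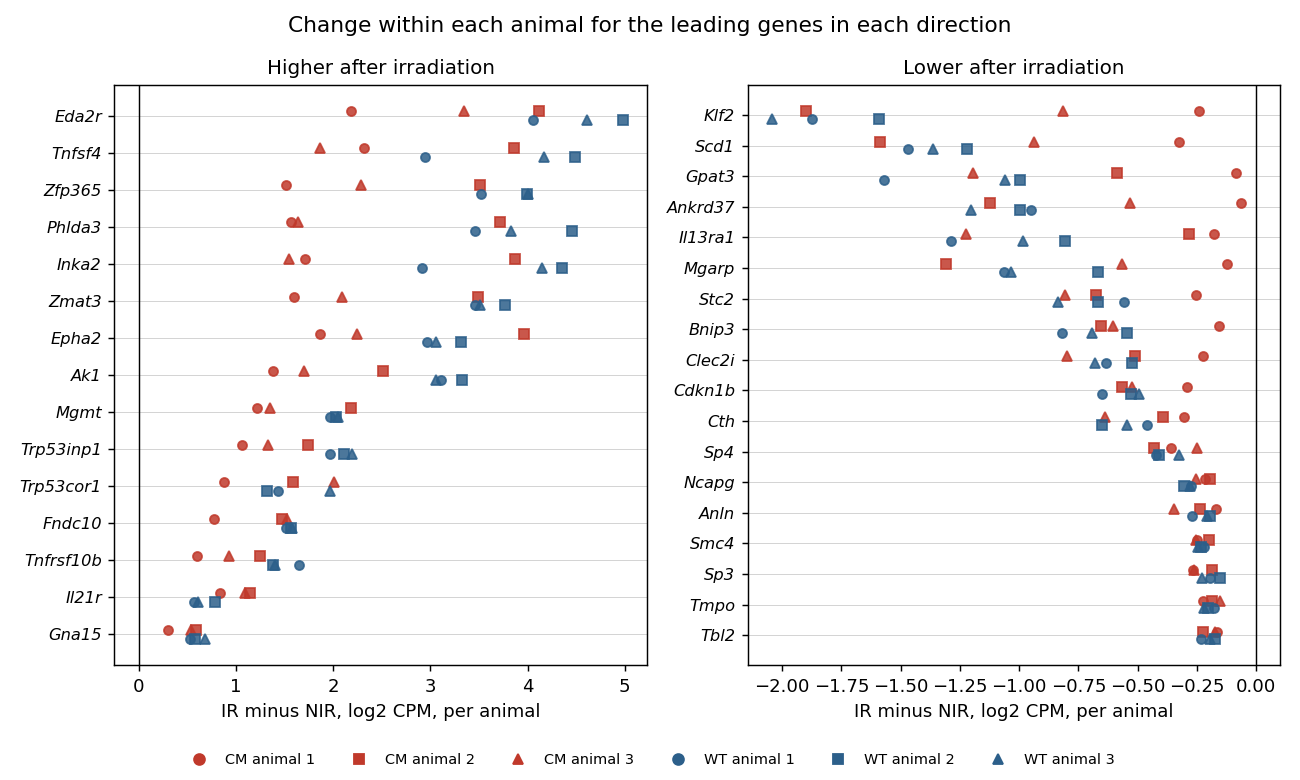
IR minus NIR log2 CPM within each animal (horizontal axis) for the genes with the smallest p or the largest fold change in each direction (rows), with CM animals red and WT animals blue. Every point of the left panel is above 0 and every point of the right panel is below 0, and CM animal 1 is nearest to 0 for most genes.

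The p53 response element was searched for in the promoters of the risen genes, as a pair of its decamers at most 1 base apart with at most 2 mismatches and the core C and G of each decamer kept; the consensus reads the same on both strands. RefSeq (GRCm38.p6) windows of 300 bases, from 250 before to 50 after the start, were matched to 11433 of the 14599 genes. The element was in 9 of 174 windows of the higher genes (5.17%), in 0 of 111 windows of the lower genes, in 85 of all windows (0.743%) and in 3 of 50 windows of the mitosis list (6%), of which 0 were among the members called lower. Among the 9 were Cdkn1a and Ccng1, each with 1 mismatch, and Zfp365 and Cd80, each with 2. Their upstream stretches are shown 5′ to 3′ on the gene's strand because they belong to 4 of the genes described above, with the matched element in capitals. They lie at chr17:29090888-29090978 (plus strand), chr11:40755422-40755521 (minus), chr10:67912666-67912765 (minus) and chr16:38458782-38458881 (plus).
Cdkn1a: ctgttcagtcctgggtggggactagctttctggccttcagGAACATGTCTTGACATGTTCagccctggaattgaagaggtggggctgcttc
Ccng1: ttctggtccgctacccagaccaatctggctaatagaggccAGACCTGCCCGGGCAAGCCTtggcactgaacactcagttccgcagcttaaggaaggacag
Zfp365: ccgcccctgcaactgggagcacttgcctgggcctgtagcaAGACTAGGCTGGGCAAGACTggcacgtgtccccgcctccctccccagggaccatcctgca
Cd80: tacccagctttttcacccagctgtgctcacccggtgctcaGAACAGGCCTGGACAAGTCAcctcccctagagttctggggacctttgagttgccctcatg
The elements start 51, 195, 63 and 111 bases before the deposited start of Cdkn1a, Ccng1, Zfp365 and Cd80. That is the outermost start of the gene. Windows at other starts of a gene were not used. A match is a description of the letters, not a measured binding site; binding was not measured, and elements outside the windows were not searched.

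Of 59 mitosis genes, 17 were called lower and 0 higher (1.0% of all genes tested were called lower), 38 were lower in all 6 pairs and 55 had a log2 fold change below 0. Over all genes tested, 6.58% were lower in all 6 pairs. The median over the mitosis list was -0.133, and by animal it was -0.141, -0.104 and -0.154 in CM and -0.122, -0.133 and -0.115 in WT. The count of called members was 14 without CM animal 1, 23 without CM animal 3, 2 without WT animal 1, 0 without CM animal 2, WT animal 2 or WT animal 3, and 35 in DESeq2. With no block it was 0, with 54 of 59 below 0.

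Smc4, the core ATPase of condensin, had 433, 328 and 423 CPM in CM IR and 365, 402 and 402 CPM in WT IR, against 516, 376 and 506 CPM in CM NIR and 425, 473 and 476 CPM in WT NIR. The groups overlapped, but each animal's IR value was lower, by 0.20 to 0.26 on the log2 CPM scale. The fitted change was -0.23 (SE 0.0248, adjusted p 0.012). Ncapg, another condensin subunit, had 114, 123 and 128 CPM in IR and 130, 148 and 152 CPM in NIR with no overlap, and fell by 0.25 (SE 0.0267, adjusted p 0.012). Anln, a contractile ring scaffold, fell by 0.24 and the chromokinesin Kif4 by 0.19. Mki67, the source of the Ki-67 antigen, fell by 0.21 (SE 0.032, adjusted p 0.0297) at levels of 1210 to 1660 CPM in IR and 1370 to 1870 CPM in NIR, and Top2a, topoisomerase II alpha, by 0.17 (SE 0.0264, adjusted p 0.0297). Cdk1, Ccnb1, Plk1, Cdc20 and Aurka, which drive entry into and exit from mitosis, had log2 fold changes of -0.06 to 0.04 and did not pass.

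DNA replication and repair genes moved less. Of 55 replication genes, 2 were called lower, Ccne2 (cyclin E2, -0.24) and Dbf4 (the activator of CDC7, -0.19), with a list median of -0.0492 (1.0% of all genes tested were called lower). The count was 8 without CM animal 3, 1 without CM animal 1, 0 without CM animal 2, any 1 WT animal or the block, and 10 in DESeq2. Of 40 genes of homologous recombination and Fanconi anemia, Rbbp8 (CtIP, which starts end resection, -0.16) and Fancb (-0.20) were called lower and Rad51d (0.19) higher. Of these 40, 5 were called lower without CM animal 3, 1 without CM animal 1, 0 without CM animal 2, any 1 WT animal or the block, and 6 in DESeq2. Neil3, a glycosylase, fell by 0.30, the single call among 28 excision and mismatch repair genes. Of 12 end-joining genes edgeR called 0 (0 at an unadjusted p under 0.05, and 0 in DESeq2 or limma-voom), and of 20 damage sensing genes it called 0 (2 lower at an unadjusted p under 0.05, 1 lower in DESeq2 and 0 in limma-voom). It also called 0 of 47 replication-dependent histone genes, 0 of 36 ribosome biogenesis genes and 0 of 77 ribosomal protein genes, of which 2, 1 and 3 had an unadjusted p under 0.05. DESeq2 called 1, 1 and 0 of them, and limma-voom 0 of each. Their medians were 0.00357, 0.0231 and 0.0336, and reads of the histone and ribosomal protein families may be shared between near-identical copies.

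Promoters of the lower genes were searched for the CHR element, TTTGAA, and for CCAAT, both on either strand; matches of the motifs may overlap. CHR was in 33 of 111 windows of the lower genes (29.7%) and in 12.5% of all windows, and CCAAT was in 55.9% of the lower genes' windows and in 38.8% of all. Both were present in 18% of the lower genes' windows and in 5.25% of all. Leaving the mitosis list out, CHR was in 22.9% and both were in 12.5% of 96 windows. In the 50 windows of the mitosis list, CHR was in 68% and both were in 60%. Shown because they belong to genes that fell in all 6 animals, with each CHR and CCAAT match in capitals in either orientation, are the 120 bases before the starts of Top2a (chr11:99024190-99024309, minus strand), Mki67 (chr7:135716380-135716499, minus), Kif11, a spindle kinesin (chr19:37376262-37376381, plus), and Ncapg (chr5:45669805-45669924, plus).
Top2a: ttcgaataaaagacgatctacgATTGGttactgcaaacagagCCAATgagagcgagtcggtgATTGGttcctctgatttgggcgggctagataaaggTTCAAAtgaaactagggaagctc
Mki67: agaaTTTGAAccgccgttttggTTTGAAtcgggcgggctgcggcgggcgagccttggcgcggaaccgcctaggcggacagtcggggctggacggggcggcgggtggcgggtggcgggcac
Kif11: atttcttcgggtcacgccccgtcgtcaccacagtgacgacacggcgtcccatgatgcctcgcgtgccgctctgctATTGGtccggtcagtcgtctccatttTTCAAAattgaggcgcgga
Ncapg: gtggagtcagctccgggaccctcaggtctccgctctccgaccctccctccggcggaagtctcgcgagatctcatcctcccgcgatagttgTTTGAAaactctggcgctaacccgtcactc
Top2a has both motifs in this stretch, Kif11 both, and Mki67 and Ncapg the CHR letters without CCAAT.

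Among the named genes that fell, the one with the smallest p was Cdkn1b, the CDK inhibitor p27. It had 50.2, 23.6 and 34.9 CPM in CM IR and 30.4, 28.8 and 24.6 CPM in WT IR, against 61.5, 35 and 50.2 CPM in CM NIR and 47.7, 41.5 and 34.6 CPM in WT NIR. The animals differed more from each other than IR from NIR, yet all 6 fell, by 0.29 to 0.65 on the log2 CPM scale. The log2 fold change was -0.51 (SE 0.0481, adjusted p 0.010). Thus Cdkn1b and Cdkn1a moved in opposite directions in each of the 6 animals. Klf2, a transcription factor known for the quiescence of T cells, had 2.76, 5.83 and 13.0 CPM in IR and 10.2, 16.0 and 20.6 CPM in NIR and fell by 1.41 (SE 0.249, adjusted p 0.0381), by 0.24 in CM animal 1 and by 2.04 in WT animal 3. Sp3 and Sp4, transcription factors of GC boxes, fell by 0.22 and 0.37.

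Scd1, which desaturates fatty acids, had 16.6, 21.0 and 41.7 CPM in IR and 42.7, 51.2 and 68.0 CPM in NIR, with no overlap, and fell by 1.15 (SE 0.157, adjusted p 0.0251). Gpat3, an acyltransferase of glycerolipid synthesis, fell by 0.91 (adjusted p 0.0489), at the edge of the threshold. Of 24 cholesterol synthesis genes, 5 were called lower and 0 higher, and 11 fell in all 6 pairs: Lss by 0.33, Insig1 by 0.29, Hmgcs1 by 0.27, Cyp51 by 0.24 and Sqle by 0.23. Over all genes tested, 1.0% were called lower and 6.58% fell in all 6 pairs. In the glycolysis list of 21 genes, which also holds glucose transporters and the mitophagy receptor Bnip3, 3 were called lower. They were Bnip3 (-0.58), the glucose transporter Slc2a1 (-0.44) and Gapdh (-0.31). Gapdh, the 1 glycolytic enzyme among them, has many processed pseudogenes and its count is uncertain. Of 27 genes of the unfolded protein and integrated stress responses, Trib3 (-0.63), Mthfd2 (-0.18) and Slc7a11 (-0.24) were called lower and Sesn2, also a p53 target, higher (0.48). Without CM animal 1, the cholesterol, glycolysis and stress response lists had 8, 8 and 4 members called lower, and without CM animal 3 they had 6, 6 and 4. In DESeq2 they had 12, 12 and 8. Each had 0 without CM animal 2, without any 1 WT animal and with no block. Cth, cystathionine gamma-lyase, fell by 0.50 and the secreted glycoprotein Stc2 by 0.63. Slc7a11 was also the 1 call among 22 antioxidant genes. Among 23 immediate early genes, the nuclear receptor Nr4a3 rose by 1.76 (adjusted p 0.0137) and Klf2 was the 1 called lower (4 lower at an unadjusted p under 0.05, 3 in DESeq2). Cd83, a surface protein of activated antigen-presenting cells, rose by 1.41 and was the 1 call among 25 inflammatory genes. The share called higher over all genes tested was 1.46%. Of 36 interferon response genes edgeR called 0, with 1 lower at an unadjusted p under 0.05 and 1 lower in DESeq2.

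**Figure D4:**
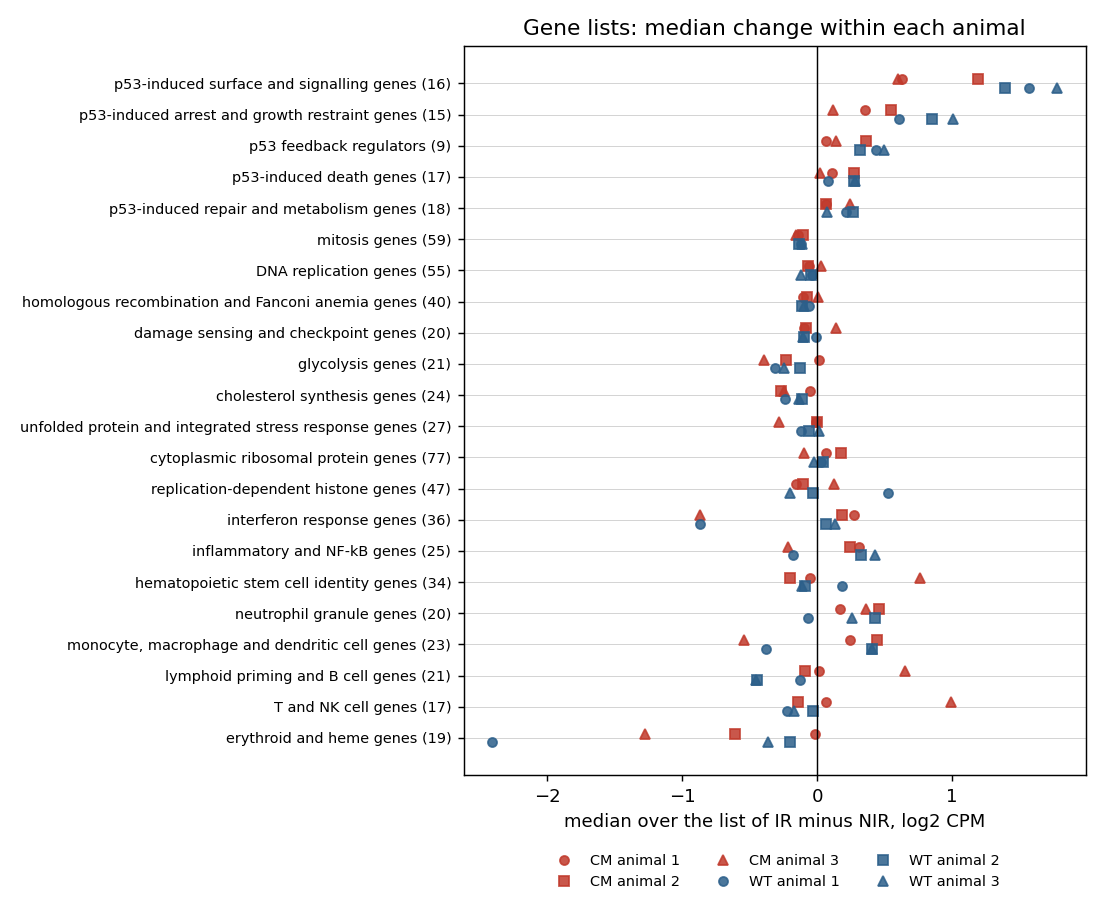
Median IR minus NIR log2 CPM over each list (rows, number of tested genes in brackets) within each animal (horizontal axis), CM red and WT blue. The p53 lists are above 0, and the mitosis, cholesterol synthesis and erythroid lists are below 0, in all 6 animals. The interferon, stem cell, lymphoid and T and NK cell lists lie on both sides of 0.

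Lineage genes moved with irradiation by amounts that differed between animals, and their part in the results above was not tested. The erythroid list had 0 of 19 called in edgeR (12 lower at an unadjusted p under 0.05, 9 in DESeq2 and 1 in limma-voom); 18 were below 0 and 8 fell in all 6 pairs; its median was -0.0137, -0.611 and -1.28 in CM animals 1, 2 and 3 and -2.41, -0.203 and -0.364 in WT animals 1, 2 and 3. Over all genes tested, 6.58% fell in all 6 pairs. The summed level of the erythroid list was 820 to 1010 CPM in IR and 913 to 1420 CPM in NIR. Ermap, an erythroid surface protein, had 0.159, 1.16 and 28.0 CPM in IR and 4.34, 20.8 and 42.0 CPM in NIR (-3.11, adjusted p 0.0593). Mpo, the myeloperoxidase of neutrophil precursors, was called higher at 0.43 (adjusted p 0.0317), the single call among 20 neutrophil genes, of which 5 rose in all 6 pairs. Over all genes tested, 1.46% were called higher and 5.93% rose in all 6 pairs. The summed neutrophil list was 4590 to 6420 CPM in IR and 3830 to 5410 CPM in NIR. EdgeR called 0 members of the stem cell (34), megakaryocyte (17), mast cell (21), monocyte (23), lymphoid (21) and endothelial and stromal (13) lists. At an unadjusted p under 0.05 these lists held 7, 5, 0, 4, 5 and 1 members, and DESeq2 called 3, 2, 0, 4, 2 and 1 of them and limma-voom 0 of each. Nkg7 (0.59), a granule protein of NK cells, was the 1 call among 17 T and NK cell genes. The defining T cell and granulocyte markers Cd3e and Ly6g were near 0 in IR and NIR alike.

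Whether both genotypes shared the effect was tested by the difference of the irradiation effects, CM minus WT. It was called for 0 genes by edgeR (417 at an unadjusted p under 0.05; smallest adjusted p 0.408), for 4 by DESeq2 and for 0 by limma-voom. A count of 0 does not show equal effects. The fitted change was smaller in CM than in WT for 174 of the 209 higher genes and 117 of the 144 lower genes, and for 8432 of all 14599; the median change was 0.557 in CM and 0.735 in WT for the higher genes and -0.202 in CM and -0.234 in WT for the lower genes. For Zmat3 the change was 2.40 in CM and 3.58 in WT, and the 95% interval of the difference was -2.25 to -0.11. For Trp53cor1 it was 1.5 in CM and 1.58 in WT, with an interval of -0.85 to 0.70, and for Smc4 -0.24 in CM and -0.23 in WT, with an interval of -0.13 to 0.13. None of these 3 differences passed after adjustment.

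WT and CM libraries have no sample in common, so each genotype could be read against calls made in the other. In the 3 WT pairs alone, 251 genes were called higher (1.77% of 14197) and 126 lower (0.888%). In all 3 CM pairs, 184 of the 251 also rose (73.3%, where 11.4% of all genes rose in all 3 CM pairs) and 71 of the 126 also fell (56.3%, background 11.4%). All 3 WT pairs rose for 19.9% and fell for 22.3% of all genes tested. For the 251 genes called higher, the median change was 0.429 in CM and 0.853 in WT. For the 126 called lower, it was -0.341 in CM and -0.687 in WT. The CM changes are means of the log2 CPM changes within animals, and the WT changes are fitted log2 fold changes. These measures are not the same, and the WT values are those that chose the genes. In the 3 CM pairs alone, 0 genes were called by edgeR, where an unadjusted p under 0.05 was reached by 253 higher and 158 lower genes.

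**Figure D5:**
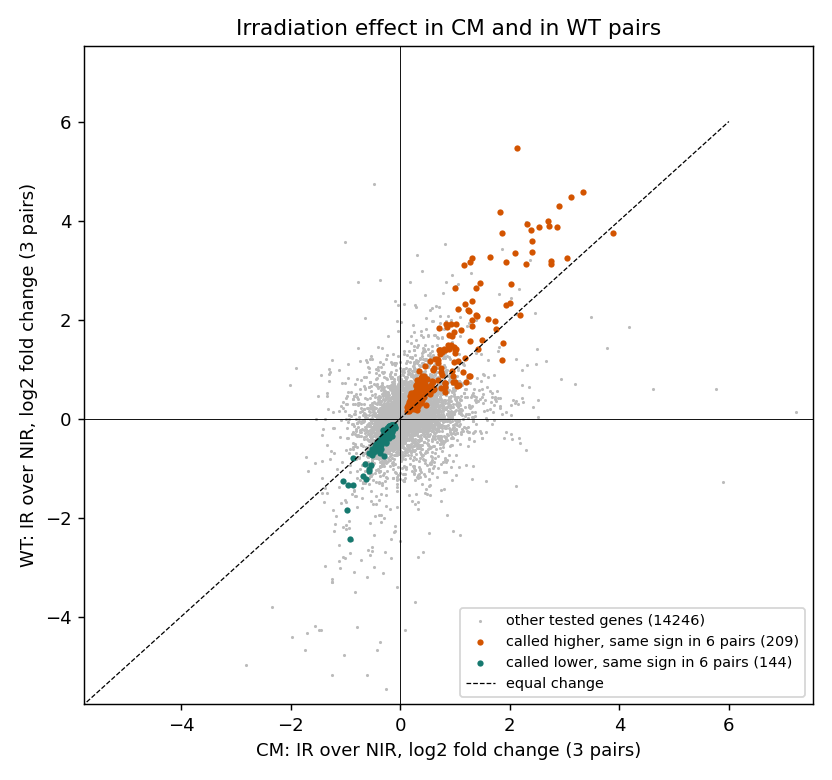
Fitted log2 fold change IR over NIR in the 3 CM pairs (horizontal axis) against that in the 3 WT pairs (vertical axis) for all 14599 genes, with the 209 shared higher genes in orange, the 144 shared lower genes in green and equal change dashed. The shared genes lie in the quadrants of equal sign because they were chosen for 1 sign in all 6 pairs, and the change was smaller in CM for 174 of the 209 and 117 of the 144.

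The 6 animals did not respond to the same extent. The median change over the 209 higher genes was 0.361, 0.581 and 0.520 log2 CPM in CM animals 1, 2 and 3 and 0.649, 0.764 and 0.848 in WT animals 1, 2 and 3. CM animal 1 had the smallest of the 6 changes for 110 of the 209 higher and 73 of the 144 lower genes, with a median of -0.154 over the lower genes, against -0.237 and -0.232 in CM animals 2 and 3 and -0.269, -0.234 and -0.240 in the WT animals. The library numbers in the labels form a series with CM animals 1 and 2 and WT animal 1 and another with CM animal 3 and WT animals 2 and 3. Fitted within either series, with 3 pairs each, 0 genes passed in edgeR, while 749 higher and 438 lower genes in the first, and 738 and 530 in the second, had an unadjusted p under 0.05.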

How the data were processed

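The deposited count table, whole numbers of reads per gene in 12 libraries of mouse LSK cells, was the basis of all main results; it and the authors' RPKM table (deposited counts scaled to exon length and library size) hold 25078 genes. Per the labels' protocols, AllPrep RNA was depleted of ribosomal RNA and made into stranded KAPA HyperPrep libraries. TopHat2, HTSeq 0.6.1p1, bcl2fastq 2.18.0.12 and build mm10 are named, per the submitters' processing notes. The sources used here do not give the strand setting or annotation, so genes that overlap on opposite strands, and near-identical copies, are uncertain. Gene coordinates are the deposited ones.

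Groups came from the titles and pairs from the animal numbers in the labels. The 6 pairs correlated at 0.13 to 0.84 in their deviations from the group means, and CM animal 3 had the 0.13. On the first principal component, CM animal 3 lay at -8.92 in IR and -75.9 in NIR. CM animal 1 lay at -78.8 and -75, CM animal 2 at 19.3 and 23, and WT animal 1 at 26.4 and -1.36. Whether the libraries of CM animal 3 differ by more than irradiation was not tested, and all counts over 6 pairs include them. Libraries of a group differed beyond sampling noise (lowest ratio of chi-square to degrees of freedom 14). filterByExpr of edgeR 4.0.16 (R 4.3.3; minimum count 10, minimum total 15) kept 14599 genes and left out 10479, of which 4353 had 0 counts throughout. The IR effect was fitted with TMM normalization, the animal as a block and edgeR's quasi-likelihood test, with Benjamini-Hochberg adjustment over all genes and a threshold of 0.05; the common biological coefficient of variation was 0.126. Changes within an animal are differences of log2 CPM with a prior count of 2. P-values set the IR effect against the spread of the change within an animal over the 6 animals. Level differences between animals are taken up by the block. Counting error is small at 68.5 to 110.8 M counts per library, less so under 1 CPM.

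The comparison, its 32 gene lists and the rule for named genes were chosen with earlier results of these data known. Named by rule were Trp53, Cdkn1a, Mdm2, Bbc3, Bax and Pmaip1; per direction the 12 genes of smallest p and the 6 of largest change among those called with 1 sign in all 6 pairs and a mean of at least 5 CPM; up to 4 members per list; genes whose pairs split; and genes at the threshold. Mki67, Top2a, Kif11, Cd80, Gdf15, Btg2, Lss and the other list members in the text were named after their values were seen, as were all genes of the hypoxia and dendritic cell lists. Alternatives used DESeq2 1.42.0 and limma 3.58.1, other filters and normalizations, RPKM with a pseudocount of 0.1 or 1, and subsets of animals. No set test was run.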

Additional observations from a re-analysis of the deposited data

Results flagged for a closer look

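The change within each animal was screened for a value far from the other 5 in 177 named genes, and 4 were found. Chance alone gives about 1 in 20 groups that were not selected. Many of the named genes were chosen for a small p or for 1 sign in all pairs. That choice favors animals with similar changes, so 4 of 177 cannot be set against this rate. Fndc10 changed by 0.773 log2 CPM in CM animal 1 and by 1.47 to 1.58 in the others. P4ha2, a collagen prolyl hydroxylase that was called lower, changed by 0.0742 in CM animal 1 and by -1.28 to -0.971 in the others. Gpx1, glutathione peroxidase 1, changed by -0.224 in CM animal 3 and by 0.145 to 0.246 in the others; it was not called (0.12, adjusted p 0.363). Gclc, a subunit of the enzyme that starts glutathione synthesis, changed by -0.0411 in WT animal 3 and by -0.11 to -0.0894 in the others, and was not called either.

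Ly6d, a surface gene of lymphoid progenitors, went in opposite directions in the genotypes: it was higher in IR in all 3 CM animals (0.21, 0.57 and 1.36 log2 CPM) and lower in all 3 WT animals (-1.96, -1.70 and -1.90). The difference CM minus WT was 2.79, with a 95% interval of 1.84 to 3.74; it did not pass edgeR's adjusted test (unadjusted p 0.000248, adjusted p 1.0). Ly6d was named for its small p of this difference, and the interval does not allow for that choice. Its level was low, 0.106 to 0.969 CPM in CM IR, 0.234 to 0.308 in WT IR, 0.0635 to 0.364 in CM NIR and 0.814 to 1.22 in WT NIR.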

How the results depend on the processing

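The counts of called genes moved with the block, the tool and the animals. With no replicate block 44 genes were called higher and 1 lower (43 and 1 with the sign of all 6 pairs), of which 40 and 1 were among the 209 and 144. With the block and 1 IR effect per genotype, averaged, 95 were called lower (87 in all pairs). DESeq2 with the block called 522 higher and 640 lower (436 and 522 in all pairs), and 4 for a genotype difference. CM pairs only, and each library number series alone, gave 0 and 0, and RPKM with no filter 31 and 8 (31 and 8 in all pairs). Leaving out 1 animal gave 0 to 534 higher and 0 to 352 lower, 0 to 510 and 0 to 346 with the sign of all remaining pairs, and 0 to 0 for the genotype difference. The share of higher genes among the calls was 59.3%, against 97.8% with no block, 79.5% for unfiltered RPKM, 68.5% for the averaged effect, 49.0% without CM animal 1 and 44.9% in DESeq2. Among named genes outside these sets, the sign changed in 3 cases: Flt1 (-0.054) and Ly6d (0.823) in CM pairs only and Kit (-0.0361) in WT pairs only. The mitosis median moved to -0.111 in the first library number series. Thinning, added after the data were seen, left 184 and 130 of the 209 and 144 called. The causes were not tested. Depth limits genes under 1 CPM.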

Other observations

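A set of 30 genes known to respond to low oxygen was gathered after the values were seen, so it carries no test and no independent weight. All 30 had a log2 fold change below 0 (median -0.256, against 0.0022 over all genes tested), and 13 were called lower, where 1.0% of all genes were. Ndrg1 had 103, 138 and 232 CPM in IR and 221, 243 and 274 CPM in NIR and fell by 0.74 (adjusted p 0.0426); the highest IR library was that of CM animal 1, at 232 CPM, and in that animal the change was 0.04 lower on the log2 CPM scale. Adm, the peptide hormone adrenomedullin, fell by 1.16 (adjusted p 0.0297), Vegfa, the endothelial growth factor, by 0.26 and the oxygen-sensing hydroxylases Egln1 and Egln3 by 0.35 and 0.41. The median by animal was -0.0282, -0.359 and -0.334 in CM animals 1, 2 and 3 and -0.428, -0.258 and -0.323 in WT animals 1, 2 and 3. Called members numbered 16 without CM animal 1, 15 without CM animal 3 and 0 without CM animal 2 or any 1 WT animal. Oxygen levels are not given in the labels.

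A set of mature dendritic cell genes was also gathered after the values were seen, so it too carries no test and no independent weight. Of 25 tested, 22 had a log2 fold change above 0, and the median was 0.721. In all 6 pairs 15 rose (5.93% over all genes), and 10 were called higher (1.46% over all genes). Ccl22, a chemokine, had 13.2, 30.6 and 41.9 CPM in IR and 2.24, 9.26 and 24 CPM in NIR and rose by 1.84 (adjusted p 0.0295). Ccl17, Fscn1 and Cd40 rose by 1.78, 1.19 and 0.86, and the homing receptor Ccr7 by 0.72. Cd80 is also in a p53 list, and Cd83 in the inflammatory list. The summed level of the set was 532 to 738 CPM in IR and 432 to 668 CPM in NIR. Called members numbered 9 without CM animal 1, 13 without CM animal 3, 4 without WT animal 1 and 0 without CM animal 2, WT animal 2 or WT animal 3. Beside this, the list of monocyte, macrophage and dendritic cell genes summed to 1720 to 7340 CPM in IR and 1260 to 6290 CPM in NIR. EdgeR called 0 of its 23 tested members (4 at an unadjusted p under 0.05, 4 in DESeq2), and its median was 0.112. Its median by animal was 0.245, 0.445 and -0.539 in CM animals 1, 2 and 3. In WT animals 1, 2 and 3 it was -0.382, 0.408 and 0.409. The part of this list in the result was not tested.

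The smallest p values of the genotype difference, besides that of Ly6d, were those of the lectins Cd209a and Cd209e. Both genes were named for those p values, and their intervals do not allow for that choice. Cd209a changed by 0.66 in CM and 2.27 in WT (difference -1.61, 95% interval -2.00 to -1.23, edgeR adjusted p 0.408). Cd209e changed by 0.99 in CM and 2.63 in WT (difference -1.63, 95% interval -2.19 to -1.08, edgeR adjusted p 1.0).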
